A study of Mus musculus with 6 samples.

Results

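H3K27me3 peaks that were present both in proliferating neural stem cells and 30 h after the start of differentiation, and that carried no H3K4me3, were described from peak lists in mouse subventricular zone neural stem cell (SVZ NSC) cultures. The peaks were chosen by measured values: a peak of the proliferating H3K27me3 list had to lie on chromosomes 1 to 19, be at most 10000 bp wide, overlap by at least 1 bp a 30 h H3K27me3 peak that was itself at most 10000 bp wide, and overlap no H3K4me3 peak. This rule kept 2523 of the 9470 proliferating peaks, or 28.0% of the 9013 on chromosomes 1 to 19. They are called K27-only peaks below. They covered 6262 kb, which was 22.4% of the length under proliferating peaks on these chromosomes.

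All cultures were monolayers of NSCs grown from the SVZ of C57BL/6 mice and used at passages 5 to 7. One H3K27me3 library came from proliferating cultures, 1 from cultures 30 h after differentiation began, and 1 H3K4me3 library from proliferating cultures. The labels call the H3K4me3 culture ventral and do not say this of the H3K27me3 cultures, so both marks may not come from the same culture. The 3 input libraries of the series were not used here, so enrichment of these peaks in input DNA remains unexamined. With 1 library per mark and time there was no replicate check. No difference below was tested against variation between libraries, and the 95% intervals cover the number of peaks counted only.

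H3K27me3 is placed on histone H3 by Polycomb repressive complex 2, whose catalytic subunit is EZH2 or its relative EZH1, and it marks chromatin in which genes are kept silent. H3K4me3 sits at the promoters of active genes and of genes poised for activity, and places with both marks are known as bivalent. H3K27me3 without H3K4me3 is found at silent promoters, along silent gene bodies and between genes.

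The authors' MACS score, which ranks the peaks of a list, started at 50.01 in the proliferating list and at 50.03 in the 30 h list, and many of the strongest peaks shared a score of 3100. Scores were ranked only within a list. Where scores of both lists are printed or correlated for the same peaks, a difference in their level was not read as a change in strength. The 30 h list was longer, with 15187 peaks covering 73.4 Mb against 9470 peaks covering 29.2 Mb, and its peaks were wider in general (median 3229 bp against 2074 bp). Read counts were not used here, which leaves library depth unknown, and its part in these differences was not tested.

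K27-only peaks were one of several outcomes for a proliferating peak. Of 8715 peaks of at most 10000 bp, 5344 met a 30 h peak of any width and 3679 met one of at most 10000 bp. H3K4me3 lay over 1156 of these 3679, and the other 2523 were the K27-only peaks. A further 1352 peaks without H3K4me3 met only 30 h peaks wider than 10000 bp, and 3238 peaks without H3K4me3 met no 30 h peak. Another 7 peaks met every condition except their own width. The share of peaks that were K27-only went with the proliferating score. When all peaks without H3K4me3 up to the width limit were divided into 5 groups by score, 25.0% (95% Wilson interval 22.8 to 27.3%) of the weakest group were K27-only peaks, and 53.5% (51.0 to 56.1%) of the strongest. The share absent from the 30 h list went from 66.5% to 7.24% over the same groups, and the share lying only under wide 30 h peaks from 8.5% to 39.2%.

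In proliferating cultures the typical K27-only peak lay near the middle of its list, and the highest scores were less frequent among them than in the list as a whole. Their widths ran from 1048 to 8990 bp, with a median of 2145 bp (95% interval 2106 to 2182 bp) and quartiles of 1714 and 2902 bp. Their median score was 93.5 (quartiles 67.0 and 158), which put the median peak at percentile 53.2 of the proliferating list. The 1156 peaks that met the rule except for having H3K4me3 were wider and stronger, with a median width of 2802 bp and a median score of 217. The 3238 peaks absent at 30 h were narrower and weaker, with medians of 1742 bp and 66.6. A score of 1000 or more was found in 43 K27-only peaks (1.70%, 1.27 to 2.29%), in 5.62% of the peaks with H3K4me3, in 0 of the 3238 absent peaks and in 5.81% of all 9013 peaks on chromosomes 1 to 19. The 95th percentile of the score was 474 in K27-only peaks and 1185 in the 9013. The 9013 have no width limit, and their widest peak had 139716 bp. Score and width went closely together in K27-only peaks (r = 0.82), so the width limits of the rule bear on how few high scores they hold.

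At 30 h the same places stood under wider peaks. The 30 h peaks over them, taking the peak of at most 10000 bp with the largest overlap where there were several, had a median width of 4854 bp (4727 to 4999 bp) and a median score of 390, at percentile 75.2 of the 30 h list. The median percentile of all 3691 proliferating peaks that met a 30 h peak of at most 10000 bp, a set that includes the K27-only peaks, was 76.5. The lists differ in length, so a percentile in one was not set against that in the other. In all, 2425 K27-only peaks met 1 peak at 30 h, 96 met 2 and 2 met 3. Together they met 2395 different 30 h peaks, of which 216 lay over at least 2 K27-only peaks. Widths were compared between times only in the 1963 K27-only peaks paired one to one, where the 30 h peak met no other proliferating peak.

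In these pairs the 30 h peak was 1.77 times as wide at the median (1.72 to 1.83), with quartiles of 1.31 and 2.64 and a range from 0.422 to 7.01. It was at least 1.5 times as wide in 1271 of 1963 pairs (64.7%, 62.6 to 66.8%). The share was 59.7% of all 3429 one-to-one pairs on chromosomes 1 to 19, which have no width limit and include the K27-only peaks. Among the 2999 of these pairs whose 30 h peak was at most 10000 bp wide it was 58.0%. The 30 h peak was at most 1/1.5 as wide in 18 K27-only pairs (0.917%), beside 0.7% of the 3429 pairs. A wider 30 h peak was thus common in all these sets. The 1035 pairs with H3K4me3 had a median ratio of 1.44 (1.40 to 1.48), and 45.3% of them (42.3 to 48.4%) reached 1.5. A ratio of 3 or more was found in 18.1% of the K27-only pairs and 5.02% of the pairs with H3K4me3. The rule caps the 30 h width, so it also limits how large a ratio can be.

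**Figure D1:**
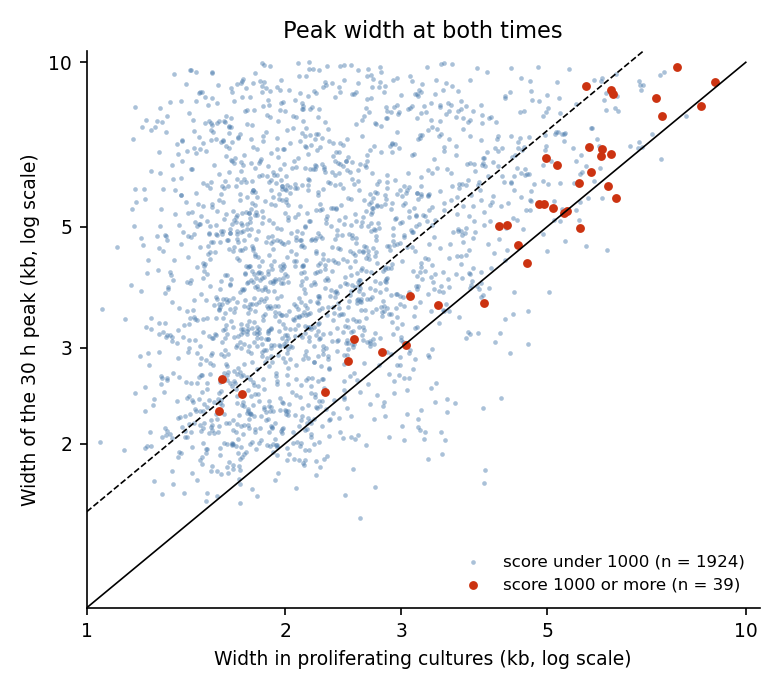
Width of each of the 1963 one-to-one K27-only peaks in proliferating cultures (horizontal axis, kb, log scale) and of its 30 h peak (vertical axis, kb, log scale). The solid line marks equal width and the dashed line a ratio of 1.5. Most points lie above the solid line, and the 39 peaks with a score of 1000 or more (red) lie close to it.

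The 30 h peaks mostly covered the K27-only peaks and ended elsewhere, much as they did over other H3K27me3 peaks. A K27-only peak lay wholly inside 1 peak at 30 h in 1746 of 2523 cases (69.2%, 67.4 to 71.0%), and at least 50% of its length was covered at 30 h in 95.4%. Over the same 3691 peaks the shares were 67.7% and 96.6%, and some overlap at 30 h was required by the rule. Both edges stayed within 250 bp in 121 of 1963 pairs (6.16%, 5.18 to 7.32%), beside 7.10% of the 2999 one-to-one pairs among the 3691. Being listed at both times was required, so the word stable describes the choice of these peaks and not a result, and it does not describe their edges. The 30 h peak reached past the proliferating peak on both sides in 70.2% of pairs, on 1 side in 27.6% and on neither in 2.19%, beside 69.2%, 28.4% and 2.40% of the 2999 pairs. The median reach was 721 bp on the left (652 to 802 bp) and 757 bp on the right (672 to 832 bp), so the intervals of both sides overlap. Across the 1963 pairs, which come from the same 2 lists, the left and right reach were almost unrelated (Pearson r = -0.08, Spearman rho = -0.02).

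**Figure D2:**
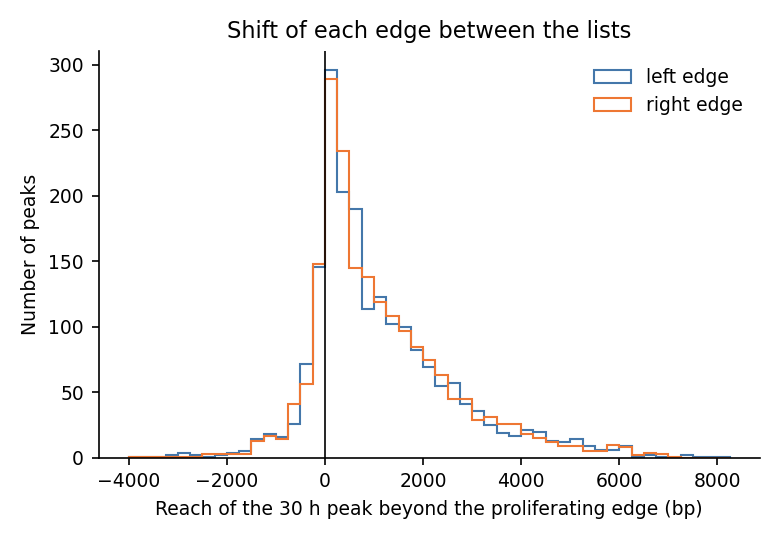
Distance in bp by which the 30 h peak reached beyond the left and the right edge of the proliferating K27-only peak (horizontal axis, values below 0 mean that it stopped short), counted over 1963 pairs in bins of 250 bp. Both distributions peak just above 0 and have a long tail to the right.

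The width ratio was lower in peaks with a higher proliferating score. In 5 groups of K27-only peaks ordered by proliferating score, the median ratio was 2.36, 2.10, 1.90, 1.61 and 1.30 from the weakest to the strongest group. The share of pairs at least 1.5 times as wide was 84.0% among the weakest peaks and 34.6% among the strongest, and the share with both edges within 250 bp was 2.66% and 14.4%. The proliferating width, which is the denominator of the ratio, rose over the groups from a median of 1521 bp to 3890 bp, while the 30 h width rose only from 4382 to 5671 bp. Score and width of the K27-only peaks went closely together in the proliferating list (r = 0.82, rho = 0.87, 2523 peaks of 1 library), so the trends with score and with width are not separate. The rule also left out peaks under wide 30 h peaks more often at high scores, as given above. With no width limit at either time, a setting added after the values were seen, the median ratio of pairs without H3K4me3 was 2.30 (2.22 to 2.41, 1138 pairs) at scores from 50 to 100 and 1.21 (1.15 to 1.27, 163 pairs) at 500 and over.

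Set beside peaks with H3K4me3 of like score, K27-only peaks differed mainly where the peaks were weak. At scores from 50 to 100 the median ratio was 2.18 (2.08 to 2.26, 1050 pairs) without and 1.62 (1.54 to 1.74, 214 pairs) with H3K4me3. The 30 h peaks were 4556 bp and 3066 bp wide at the median, while the proliferating widths were close (1756 and 1802 bp). At scores from 100 to 200 the ratios were 1.63 (1.58 to 1.70) and 1.51 (1.44 to 1.61), at 200 to 500 they were 1.34 (1.29 to 1.41) and 1.40 (1.35 to 1.47), and at 500 and over 1.15 (1.11 to 1.21) and 1.24 (1.19 to 1.29). Under the rule's width limits the intervals overlap in each of these 3 bands. With no width limit the ratios without and with H3K4me3 were 2.30 and 1.62 at 50 to 100, 1.71 and 1.53 at 100 to 200, 1.44 and 1.44 at 200 to 500, and 1.21 and 1.30 at 500 and over. At 100 to 200 the intervals were then 1.64 to 1.79 and 1.44 to 1.63 and did not overlap. The overlap in that band thus depends on the width limit. In the higher bands the intervals still overlapped.

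**Figure D3:**
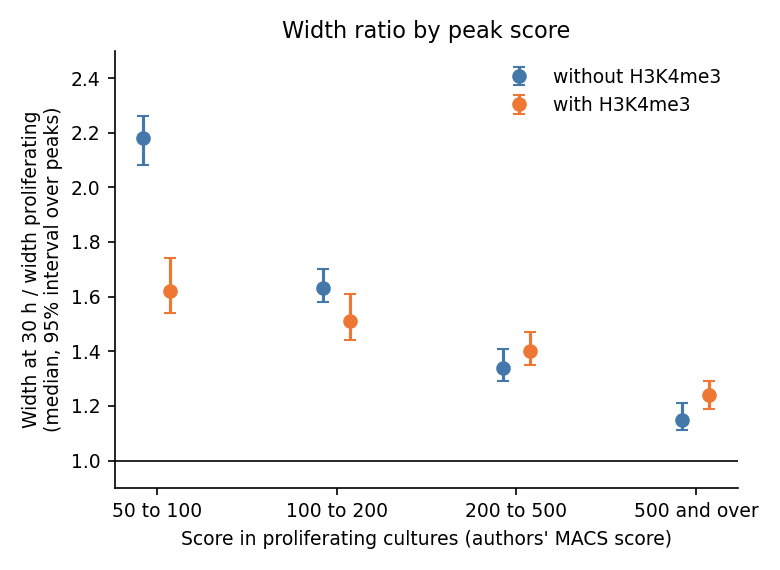
Median ratio of 30 h to proliferating width in 4 bands of proliferating score (horizontal axis), for peaks without (blue, K27-only) and with (orange) H3K4me3. Bars are 95% intervals of the median over peaks. The ratios go from 2.18 to 1.15 without and from 1.62 to 1.24 with H3K4me3, and the line at 1 marks equal width.

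The order of the K27-only peaks by score and by width was only partly kept between times. Across the 1963 pairs the log2 scores of the lists had r = 0.52 (rho = 0.43) and the log2 widths r = 0.35 (rho = 0.31). In the 1035 pairs with H3K4me3, from the same 2 libraries, the values were 0.78 (0.78) and 0.64 (0.63). The peaks with H3K4me3 also spread over a wider range of proliferating scores (quartiles 110 and 406 against 67.0 and 158), and the part of that range in these values was not tested.

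The 5 highest-scoring K27-only peaks are given as a description, since the width limit bounds how much wider an already wide peak could be. A score of at least 3100 was found in 9 K27-only peaks. Those tied at 3100 were taken from the widest down, so the peaks left out were narrower. The highest score, 3134.4, belonged to a peak on chromosome 6 from 3149818 to 3152308 (mm9, as are all positions), 2491 bp wide and under a 30 h peak of 2831 bp. A peak on chromosome 10 from 7228674 to 7237663 had a score of 3100 at both times and widths of 8990 and 9217 bp, and was also the widest of all. A peak on chromosome 17 from 39978892 to 39986350 began at the same base in both lists and was 7459 bp wide, then 7961 bp. It also lay 830 kb from the nearest H3K4me3 peak. Also on chromosome 17, a peak from 13742517 to 13747028 went from 4512 to 4618 bp. On chromosome 1 from 24617805 to 24623973 the width was 6169 bp and then 5945 bp. Its score was 3100 in the proliferating list and 1470.24 in the 30 h list. Input DNA was not examined at these 5 peaks, so whether reads also pile up there without the mark is unknown.

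Low ratios were also found in the 43 K27-only peaks with a score of 1000 or more, a limit chosen after the values were seen. Their median ratio was 1.11 over 39 pairs, and 2 of the 39 reached 1.5 (5.13%, 1.42 to 16.9%), against 66.0% of the pairs under 1000. With no width limit the median ratio was 1.15 (1.08 to 1.22) over 79 pairs without H3K4me3, of which 13 reached 1.5 (16.5%). The rule and its limit thus bear on these shares. Pairs with H3K4me3 at these scores had a median ratio of 1.18 (58 pairs) under the limits. With no limit it was 1.26 (1.21 to 1.31, 179 pairs), and 25.1% reached 1.5. Low ratios at such scores were thus not particular to K27-only peaks. Among the 43 K27-only peaks of 1000 or more, both edges were within 250 bp in 9 of 39 pairs (23.1%, 12.6 to 38.3%), against 5.82% under 1000. None of their 43 30 h peaks reached an H3K4me3 peak, which allows a share of up to 8.20% by the Wilson interval. They lay over 100 kb from H3K4me3 in 27.9% of cases (16.7 to 42.7%), against 12.6% of the weaker peaks. Among all 9013 peaks on chromosomes 1 to 19 the share was 24.6%, which lies inside that interval.

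Some of these strong peaks lay next to the start of the assembled sequence, which begins near the 3 Mb mark on mouse chromosomes. Of the 40 proliferating peaks within 500 kb of that mark, 14 were K27-only, on 10 chromosomes. Among all 9013 peaks on chromosomes 1 to 19, 28.0% were K27-only. Of the 14, 4 had a score of 1000 or more (28.6%), against 43 of all 2523 (1.70%) and 5.81% of the 9013. The share among the other peaks near the mark was not counted. Beside the peak on chromosome 6, the 4 included chromosome 12 from 3108916 to 3111215 (score 3100, 2300 bp then 2486 bp) and chromosome 11 from 2999664 to 3004953 (score 1216.95). The peak on chromosome 11 ended at 3004964 at 30 h and started at the same base. That base lies at the start of the assembled sequence, so a shared start there says little about how far the edges agree. The pair still counts among those with both edges within 250 bp. This window was also chosen after the values were seen, and input DNA was not examined at these places.

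The largest and smallest changes in width lay at peaks of different strength. The largest ratio, 7.01, was on chromosome 9 from 44888737 to 44890095, where a peak of 1359 bp with a score of 52.22 stood under a 30 h peak of 9531 bp with a score of 1110.59. On chromosome 15 a peak from 36087758 to 36088941 went from 1184 to 8270 bp (ratio 6.98). The next were on chromosome 4 from 154090112 to 154091548 (6.72), chromosome 17 from 32563290 to 32564730 (6.72) and chromosome 14 from 60562651 to 60564117 (6.54). All 5 had proliferating scores between 50.14 and 67.22, at percentiles from 0.407 to 30.0 of the list. At the other end, a peak on chromosome 12 from 57460938 to 57464948 went from 4011 bp to 1691 bp (ratio 0.422). Its score was 197.74 in the proliferating list and 55.98 in the 30 h list. The next smallest ratios were 0.445 on chromosome 17 from 4896882 to 4900905 and 0.554 on chromosome 10 from 99765135 to 99768598.

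K27-only peaks lay near H3K4me3 peaks far more often than the peaks that were absent at 30 h. The rule excluded overlap only. The median distance to the nearest H3K4me3 peak was 20.4 kb (18.7 to 22.1 kb), with quartiles of 6.88 and 55.9 kb, against 104 kb (98.3 to 111 kb) for the 3238 absent peaks without H3K4me3. An H3K4me3 peak lay within 5 kb of 479 K27-only peaks (19%, 17.5 to 20.6%) and of 3.98% of absent peaks (3.36 to 4.71%). It was farther than 100 kb for 325 (12.9%) and 51.3%. Among all 9013 peaks on chromosomes 1 to 19, which include those overlapping H3K4me3, the median distance was 23.7 kb. Their shares were 29.8% within 5 kb, 47.3% within 20 kb (49.4% of K27-only peaks) and 24.6% beyond 100 kb. The 1352 peaks lying only under wide 30 h peaks, a comparison chosen after the values were seen, had the same median as the K27-only peaks, 20.4 kb. The absent peaks were also weaker, with a median score of 66.6. Within the K27-only peaks the median distance was 22.7 kb in the weakest of the 5 score groups and 20.2 kb in the strongest, with 18.7 to 20.4 kb between them.

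**Figure D4:**
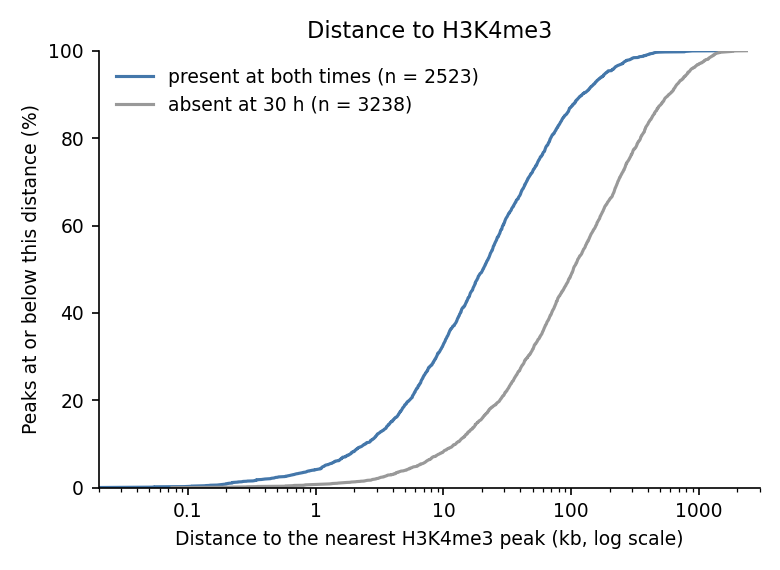
Share of peaks (vertical axis, %) within a given distance of the nearest H3K4me3 peak (horizontal axis, kb, log scale), for the 2523 K27-only peaks and the 3238 peaks without H3K4me3 that were absent at 30 h. The curves reach 50% at 20.4 kb and 104 kb.

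The width of K27-only peaks hardly varied with that distance. Peaks with H3K4me3 within 5 kb, at 5 to 20 kb, at 20 to 100 kb and beyond 100 kb had median widths of 2152, 2155, 2158 and 2069 bp. Their median ratios were 1.64, 1.71, 1.91 and 1.74. At 30 h, 144 K27-only peaks (5.71%, 4.87 to 6.68%) met, with their largest overlap, a peak that reached an H3K4me3 peak of the proliferating list, and among those with H3K4me3 within 5 kb the share was 29.6%. There was no H3K4me3 library at 30 h. The nearest approach was 18 bp, on chromosome 1 from 192506345 to 192510837, and at 4 more peaks the gap was 21 to 55 bp. The farthest was 1508 kb, on chromosome 7 from 22048437 to 22051962, where the width went from 3526 to 2418 bp. Another lay 887 kb away, on chromosome 8 from 29360245 to 29361887, and went from 1643 to 7598 bp.

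Many K27-only peaks lay near other H3K27me3 peaks, and this varied widely between sets. Another proliferating H3K27me3 peak lay within 10 kb of 49.8% of them (47.8 to 51.7%), against 40.6% of all 9013 peaks, 88.4% of the 1352 peaks lying only under wide 30 h peaks, 27% of the peaks with H3K4me3 and 12.6% of the absent peaks. Another K27-only peak lay within 10 kb of 913 (36.2%, 34.3 to 38.1%). A 30 h peak wider than 10 kb lay within 100 kb of 39.4%, close to the 38.1% of all 9013 peaks, against 18.9% of the peaks with H3K4me3 and 7.32% of the absent peaks. Joined over gaps under 10 kb, the 2523 peaks formed 1997 groups, of which 1610 were single peaks and 387 were runs of at least 2. There were 86 runs of at least 3 peaks and 25 of at least 4, and the 25 held 128 peaks.

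The longest runs had 10 peaks each. One lay on chromosome 11 from 60405292 to 60463044, a span of 57.8 kb of which its peaks covered 34.8 kb. Its peaks were 1988 to 4998 bp wide with scores from 81.87 to 333.49, and they met 9 peaks at 30 h, which were 2237 to 9196 bp wide. Another proliferating H3K27me3 peak that was not K27-only lay inside the span. The nearest H3K4me3 peak was 6.12 kb away, and none lay between the peaks of the run. The other run lay on chromosome 1 from 85066836 to 85118427, spanning 51.6 kb, also with 9 peaks at 30 h, and with the nearest H3K4me3 peak 135 kb away. A run of 8 lay on chromosome 8 from 19854163 to 19885399.

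The K27-only peaks were unevenly spread over the chromosomes. There were 1.02 per Mb in all, from 2.15 per Mb on chromosome 11 (262 peaks) and 1.73 on chromosome 17 to 0.414 on chromosome 3 (66 peaks) and 0.408 on chromosome 18 (37 peaks). The highest density was 5.27 times the lowest, while for the absent peaks, at 1.31 per Mb in all, it was 1.45 times. Uneven spread was not particular to K27-only peaks. The peaks with H3K4me3 numbered 111 on chromosome 11 (121.8 Mb) and 39 on the longer chromosome 3 (159.5 Mb). All proliferating peaks up to 10 kb numbered 649 and 374 there. K27-only peaks made up 40.4% (36.7 to 44.2%) of the proliferating peaks up to 10 kb on chromosome 11 and 16.9% (12.5 to 22.4%) on chromosome 18. Chromosomes with more H3K4me3 peaks per Mb had more K27-only peaks per Mb (r = 0.86, rho = 0.81 over 19 chromosomes). For the absent peaks the values were -0.50 and -0.44. The relation was not computed for the peaks with H3K4me3 or for all peaks up to 10 kb. Both of those sets were also more numerous on chromosome 11 than on chromosome 3, which had 11.4 and 5.85 H3K4me3 peaks per Mb. It is thus not shown to be particular to K27-only peaks. The densities share the chromosome length as denominator, taken as the end of the last peak of any list, and gene density was not measured.

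**Figure D5:**
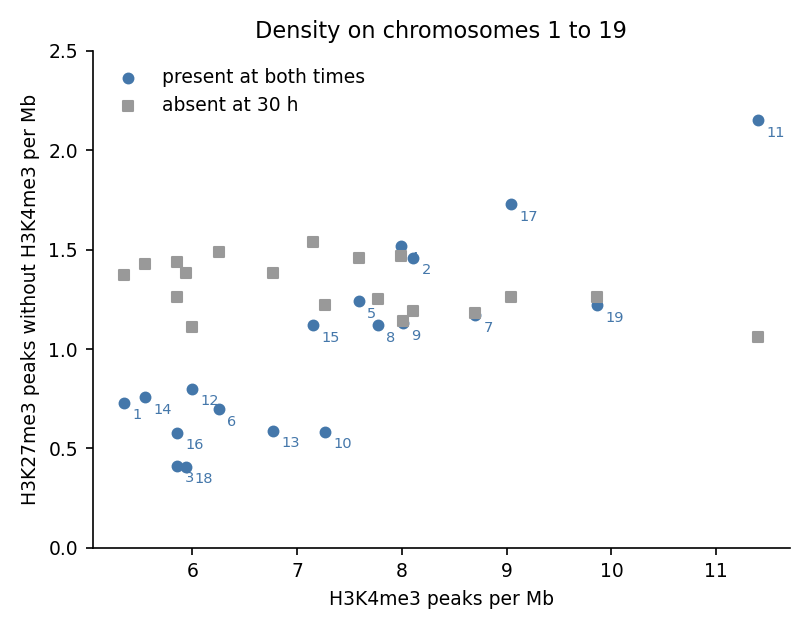
Peaks per Mb of K27-only peaks (blue circles, numbered by chromosome) and of peaks without H3K4me3 absent at 30 h (grey squares), against H3K4me3 peaks per Mb, for chromosomes 1 to 19. The blue points rise from 0.408 to 2.15 per Mb and the grey points stay between 1.06 and 1.54.

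The width limits cut through a continuous range. The widest K27-only peaks were 8990, 8622 and 8552 bp wide, and the narrowest peaks that only their own width kept out were 10220, 11229 and 12413 bp wide. The widest 30 h peaks within the limit had 9999, 9984 and 9982 bp, and the next ones outside it 10001, 10006 and 10011 bp. Of the K27-only peaks, 22 also met a 30 h peak over 10 kb beside a narrower one.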

How the data were processed

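ChIP-seq peak lists of 3 of the 6 samples were used: H3K27me3 in proliferating and in 30 h cultures and H3K4me3 in proliferating cultures. The submitters' processing notes name Bowtie2 and the build mm9, and the study's methods name MACS, run with no model and no lambda for H3K27me3. No source used here gives the MACS version or threshold, the handling of duplicates or the role of the inputs. Peaks were called per library, 1 list each. The deposited files hold the start, end and score of each peak, and the score is the authors' MACS value. Depth is unknown, so the precision of a single peak could not be given. The files hold 0 columns of the authors' own comparisons between groups.

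Positions are printed counting from 1. Peaks overlapped when they shared at least 1 bp, and distances run from edge to edge. Shares have 95% Wilson intervals and medians 95% intervals from order statistics. Score percentiles are within a list. Python 3.11.15, numpy 2.4.6, pandas 2.3.3, scipy 1.17.1 and matplotlib 3.10.9 were used, overlaps were first tested on simulated peaks, and bedtools 2.31.1 gave the same number of K27-only peaks. Nothing was tested for significance.

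The rule for the peaks, the comparison sets and the lists were chosen with earlier results of these data known. The peaks eligible to be named were the 5 highest by score at each time, the 5 widest, the 5 with the largest and the 5 with the smallest width ratio, the 5 nearest to and the 5 farthest from H3K4me3, the longest runs and the 3 on each side of each width limit. Some of these are not printed. The run of 8 peaks, the peaks near the 3 Mb mark, the limit of 1000 on the score, the ratios by score with no width limit and the comparison with peaks under wide 30 h peaks fall outside that rule and were chosen after the values were seen. Results planned on genes, gene lists, marker genes, CpG content and sequence were not computed, because mm9 gene positions and sequence were not used here and the reference tables given were built on GRCm38.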

Additional observations from a re-analysis of the deposited data

Results flagged for a closer look

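Peaks off chromosomes 1 to 19 were outside the rule, and some met all its other conditions. On unplaced contigs this held for 81 of 167 proliferating peaks (48.5%), with a median width of 2398 bp and a median width ratio of 1.03 over 62 one-to-one pairs, against 1.77 for the K27-only peaks. On chromosome X it held for 19 of 285 peaks (6.67%), all one to one, with a median ratio of 1.27, and on chromosome Y for 0 of 5. Input libraries, which would serve as control samples, were not used here, and no cause was tested.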

How the results depend on the processing

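The 8 summary values of the K27-only peaks were recomputed under 7 other settings and 1 added after seeing the data. The median width ratio stayed above 1 in each, and the other values have no direction. With a width limit of 5000 bp there were 1315 peaks, with median widths of 2010 and 3323 bp, a median ratio of 1.52, 51.2% of pairs reaching 1.5, 56.3% of peaks inside 1 30 h peak and 21.1% with another K27-only peak within 10 kb. With no width limit the same values were 3972, 2259 and 7312 bp, 1.87, 67.0%, 78.2% and 54.1%. With the stronger 50% of both H3K27me3 lists they were 1183, 2886 and 5651 bp, 1.67, 61.2%, 71.9% and 24.0%. With a 30 h list cut to its strongest peaks, to the number of proliferating peaks, the median widths were 2196 and 5304 bp, the ratio 1.95, and the shares 71.9% reaching 1.5 and 74.0% inside. Cut instead until it covered as many bases as the proliferating list, a setting added later, 599 peaks were left, with 2676 and 7907 bp, 2.27, 71.9% and 82.5%. Score and width of the 30 h peaks also went together (r = 0.82, rho = 0.83, 1963 pairs). Keeping the strongest 30 h peaks therefore tends to drop narrow ones, which by itself raises the ratio. These cuts cannot show what the ratio would be with 30 h peaks called at equal depth. Requiring 50% coverage at 30 h put 72.6% inside 1 30 h peak, and leaving out peaks with H3K4me3 within 5 kb raised the median distance to H3K4me3 to 28820 bp. Adding chromosomes X and Y moved no value beyond its spread. The number of K27-only peaks and their widths thus depend on the width limit and on how much of the genome the 30 h list covers. Depth is unknown, and its part in these values was not tested. Settings for gene starts and CpG content were not run. No paired analysis was possible because each mark and time has 1 library and no test was run.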
